A study of Mus musculus with 5 samples.

Results

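The 9 genes described here make and load the major histocompatibility complex (MHC) class I molecule: *B2m*, *H2-K1*, *H2-D1*, *Tap1*, *Tap2*, *Tapbp*, *Nlrc5*, *Psmb8* and *Psmb9*. They were taken by symbol from the 33696 genes of the count tables and read in 6540 Müller glia (MG), which were chosen from 15293 cell barcodes by depth and by their content of MG transcripts. A cell counted as MG if it held at least 1000 unique molecular identifiers (UMIs), at most 15% mitochondrial UMIs and at least 0.5% of its UMIs in *Glul*, *Rlbp1*, *Slc1a3*, *Clu* and *Aqp4*. In all, 10749 cells met the limits on depth and mitochondrial UMIs.

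A class I molecule displays a peptide from the inside of the cell to CD8 T cells. Proteasomes cut proteins into peptides, a transporter carries the peptides into the endoplasmic reticulum, and there they are loaded onto a heavy chain paired with a small light chain. Interferons raise this machinery in most cell types, in part through the regulator NLRC5. Neurons of the healthy central nervous system are known for low class I expression, and microglia are the resident immune cells of the retina.

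All mice were *Glast-CreERT2; Rosa26-Ai65* on C57BL/6J, 12 to 20 weeks of age, both sexes pooled, and all received tamoxifen and an intravitreal ShH10 adeno-associated virus (AAV). The AAV carried FlpO and, under a *Gfap* promoter, either the red fluorescent protein mKate2 as the control or *Yap5SA*, a constitutively active form of the growth regulator YAP. In the paper's methods both were injected in the same volume, and the *mKate2* AAV held more genome copies per volume. Dose therefore cannot be told apart from condition. The reporter tdTomato needs both Cre, driven by the *Glast* promoter, and FlpO, and tdTomato+ cells of pooled retinas were sorted 56 days after injection, from 16 retinas with *mKate2* AAV and 21 with *Yap5SA* AAV. The paper reports that, by the day of sorting, the active YAP protein from the virus was no longer detected and MG proliferation had stopped. Each comparison of conditions is therefore of cells after this loss, and an effect on class I genes while the protein was present was not tested. The *mKate2* AAV condition is represented by replicates 1 and 2, and the *Yap5SA* AAV condition by replicates 1 and 3. *Yap5SA* AAV replicate 2 shared 1361 cell barcodes with replicate 1, 99.8% of its own, and was left out, whereas the other pairs shared at most 7 barcodes. No source says that the libraries came from separate animals, so each p-value measures the spread between libraries.

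The 4 libraries held 13614102, 50938304, 13132765 and 16035182 UMIs, and 1498, 2898, 803 and 1341 MG with medians of 6194.5, 2918.5, 10778 and 2920 UMIs per cell, with the *mKate2* AAV pair first and each pair in order of replicate number. The same order is kept for every series of 4 values. The 12 MG markers summed to between 21977 and 25224 CPM (a gene's UMIs over all UMIs of the same cells in a library, scaled to 1000000) in MG and to between 999 and 1350 CPM in microglia-like cells, although 5 of the 12 had served to choose the MG. Cells outside MG were named from clusters built without the 9 genes, without the other genes of the pathway and without interferon-response genes. The libraries differed in which MG-like cells they held. The largest MG-like cluster was led by *S1pr1* and *Abca8a* in *mKate2* AAV replicate 1 (695 cells), by *Mt2* and *Gfap* in *mKate2* AAV replicate 2 (1008 cells), by *Lcn2* and *C3* in *Yap5SA* AAV replicate 1 (432 cells) and by *Prss56* and *Hopx* in *Yap5SA* AAV replicate 3 (494 cells). Part of the sort was not MG, and microglia-like cells made up 1.91%, 16.4%, 13.9% and 2.86% of the cells within the limits.

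Of the 9 genes, 7 lie in or beside the MHC on chromosome 17 of GRCm39 (GENCODE vM39), where *Psmb9*, *Tap1*, *Psmb8* and *Tap2* follow one another within 34870 bases. *Tap1* and *Psmb9* are transcribed away from each other from RefSeq starts 226 bases apart, so that their promoter windows overlap by 225 bases. *B2m* is on chromosome 2 (chr2:121977957-121983594, plus strand) and *Nlrc5* on chromosome 8 (chr8:95160984-95253900, plus strand). The promoter sequences of 4 members, the 250 bases before the RefSeq transcript start, are shown, and a link between their motifs and the levels was not tested. They come from RefSeq's table for GRCm38.p6, which held 7 of the 9 genes, and each was placed on GRCm39 by an exact match. For *H2-K1* it listed 2 starts, and the first was used, so the motif distances of *H2-K1* hold for that start. Capitals mark an interferon regulatory factor (IRF) core, the NF-kB consensus and the half-site TGACG of the cAMP response element, in either orientation.
B2m: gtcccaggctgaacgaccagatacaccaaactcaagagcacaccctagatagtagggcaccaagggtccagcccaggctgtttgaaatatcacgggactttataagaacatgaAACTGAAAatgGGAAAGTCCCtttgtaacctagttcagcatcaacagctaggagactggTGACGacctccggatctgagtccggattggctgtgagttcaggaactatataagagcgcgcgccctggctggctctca
H2-K1: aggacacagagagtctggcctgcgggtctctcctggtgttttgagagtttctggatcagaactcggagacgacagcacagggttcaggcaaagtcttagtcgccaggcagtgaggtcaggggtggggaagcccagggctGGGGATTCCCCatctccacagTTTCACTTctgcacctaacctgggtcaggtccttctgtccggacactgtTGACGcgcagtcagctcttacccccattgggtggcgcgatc
H2-D1: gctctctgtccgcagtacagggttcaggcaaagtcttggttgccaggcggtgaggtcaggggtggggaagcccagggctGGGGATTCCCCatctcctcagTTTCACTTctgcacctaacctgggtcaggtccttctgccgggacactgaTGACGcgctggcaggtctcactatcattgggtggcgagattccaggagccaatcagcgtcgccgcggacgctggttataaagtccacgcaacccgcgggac
Tap1: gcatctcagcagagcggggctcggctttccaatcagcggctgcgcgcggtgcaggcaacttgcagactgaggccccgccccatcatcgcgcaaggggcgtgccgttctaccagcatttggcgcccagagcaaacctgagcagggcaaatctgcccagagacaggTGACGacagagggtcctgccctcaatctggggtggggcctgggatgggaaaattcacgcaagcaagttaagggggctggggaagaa

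The *B2m* sequence is chr2:121977918-121978167 on the plus strand, *H2-K1* is chr17:34219322-34219571 on the minus strand, *H2-D1* is chr17:35481820-35482069 on the plus strand and *Tap1* is chr17:34406280-34406529 on the plus strand. GENCODE places the gene start further upstream than RefSeq does in 6 of the 7, all but *H2-K1*. The IRF core, searched as AANNGAAA on both strands, was found in *B2m*, *H2-K1* and *H2-D1* and in 21.3% of all 32536 RefSeq promoters of this length. The NF-kB consensus was found in the same 3 members and in 7.28% of promoters, and TGACG in 5 of the 7 members (also *Tap1* and *Psmb9*) and in 17.9% of promoters. The TGACG of *Tap1* and that of *Psmb9* are the same site, read on opposite strands where their windows overlap, so the count of members holds it for both genes. In *B2m* the 3 motifs began 137, 126 and 78 bases before the start, with the IRF core first. In *H2-K1* the NF-kB consensus came first, at 111 bases, and the IRF core followed at 90 and TGACG at 41. *H2-D1* held the same series at 171, 150 and 101 bases and shared a run of 47 identical bases with *H2-K1*. The core of the interferon-stimulated response element, a fuller motif, overlapped the IRF core of *B2m* alone among the 7 (2.98% of promoters). *Psmb8* held TTCNNNGAA, the gamma-activated site, which 7.04% of promoters held, and none of the IRF, NF-kB and TGACG motifs. A match describes letters in the window and not binding.

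**Figure D1:**
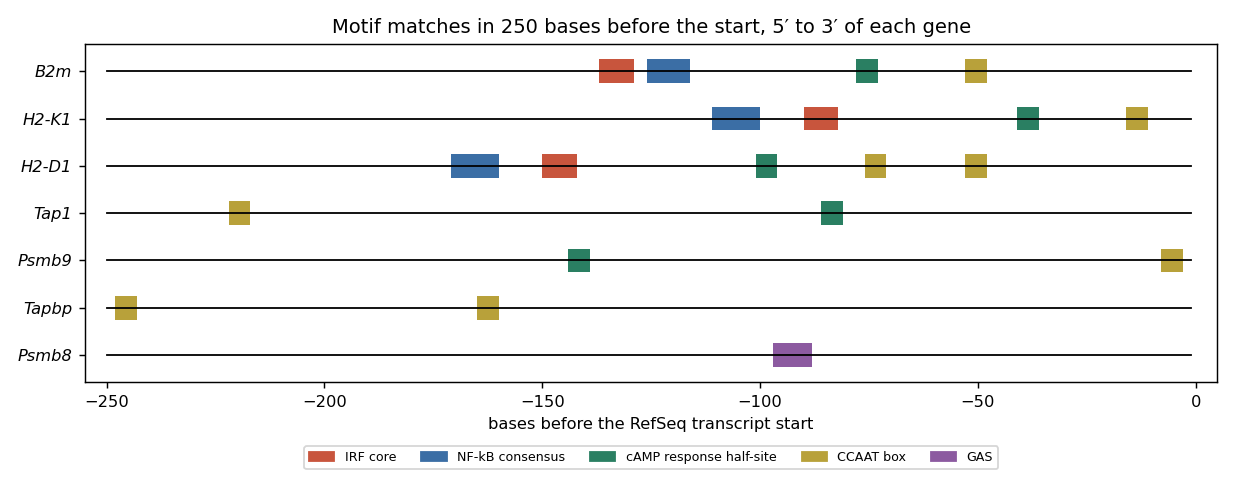
Motif matches in the promoters of the 7 members that RefSeq's table held, drawn along the 250 bases before each transcript start (x axis, bases before the start; 1 line per gene, 5′ to 3′). *H2-K1* and *H2-D1* show the same series of an NF-kB consensus, an IRF core and a TGACG half-site, at 111, 90 and 41 bases in *H2-K1* and at 171, 150 and 101 bases in *H2-D1*, and *B2m* has the IRF core before the NF-kB consensus.

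In MG, *B2m* was the most abundant of the 9 genes in each library and *Tap1* the least, on the scale of CPM of 3′ UMI counts. These counts were not adjusted for gene length, and an effect of length was not tested. *B2m*, the light chain, was at 466, 1229, 1228 and 409 CPM in the 4 libraries. The heavy chain *H2-K1* (chr17:34214987-34219321, minus strand) was at 166, 361, 313 and 136 CPM, and the heavy chain *H2-D1* (chr17:35481691-35486475, plus strand) at 91.0, 336, 254 and 110 CPM. In all 3 genes *mKate2* AAV replicate 2 and *Yap5SA* AAV replicate 1 were high and the other 2 libraries low, so each condition held 1 high and 1 low library. Heavy chain genes are near-identical in parts, and reads that match several of them may be missing from any 1 of them, so the split between *H2-K1*, *H2-D1* and their relatives is uncertain.

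*Tap1* (chr17:34405996-34416199, plus strand) and *Tap2* (chr17:34422501-34435829, plus strand) encode the chains of the peptide transporter. *Tap1* was at 12.5, 17.3, 17.6 and 8.68 CPM and *Tap2* at 43.9, 44.9, 43.8 and 30.3 CPM, and *Tap2* thus varied least among the members. *Tapbp* (chr17:34134873-34148267, plus strand), which encodes tapasin, the bridge between transporter and heavy chain, was at 40.2, 74.2, 58.0 and 41.9 CPM. *Psmb8* (chr17:34416690-34420428, plus strand) and *Psmb9* (chr17:34400960-34406738, minus strand) encode catalytic subunits that replace the standard ones in the immunoproteasome. *Psmb8* was at 72.8, 184, 151 and 93.2 CPM and *Psmb9* at 27.1, 63.3, 78.1 and 27.7 CPM. *Nlrc5*, the transcriptional regulator of class I genes, was at 15.1, 38.9, 43.1 and 27.8 CPM. As for the chains, the middle 2 libraries were the highest for *Tapbp*, *Psmb8*, *Psmb9* and *Nlrc5*, and the groups overlapped for 8 of the 9 genes. For *Tap2* the higher *Yap5SA* AAV library lay just under the lower *mKate2* AAV library.

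Compared between conditions, no class I transcript of MG differed by more than the spread between libraries (edgeR's quasi-likelihood test on UMIs summed per library, Benjamini-Hochberg adjustment at 0.05, 2 libraries against 2). None of the 9 members and 0 of 15285 genes tested (0%) were called, 30 genes had an unadjusted p under 0.05, and DESeq2 also called 0. For *B2m* the log2 fold change of *Yap5SA* over *mKate2* AAV was −0.21 (SE 0.76, 95% interval −2.19 to 1.76, adjusted p = 1.00). It was −0.38 for *H2-K1*, −0.41 for *H2-D1*, −0.31 for *Tap1*, −0.37 for *Tap2*, −0.33 for *Tapbp*, −0.23 for *Psmb8*, 0.24 for *Nlrc5* and 0.07 for *Psmb9*, with 95% intervals that reached from −2.43 for *H2-D1* up to 1.81 for *Psmb9*. The interval of *Tap2* was the narrowest, from −1.10 to 0.36. The median over the members was −0.31, beside −0.03 over all genes tested. The design had little reach: on simulated counts for these 15285 genes it recovered 0% of genes changed by 2-fold and 63% of those changed by 8-fold, and an exact permutation test of 2 libraries against 2 cannot give a two-sided p below 0.333.

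For 8 of the 9 genes the pair of conditions ran in opposite directions according to the version of Cell Ranger in the file headers, which was 8.0.0 in *mKate2* AAV replicate 1 and *Yap5SA* AAV replicate 1 and 9.0.1 in the other 2 libraries. Between the libraries of version 8.0.0 the log2 ratio of *Yap5SA* over *mKate2* AAV was 1.40 for *B2m*, 0.91 for *H2-K1*, 1.48 for *H2-D1*, 1.05 for *Psmb8*, 1.53 for *Psmb9* and 1.52 for *Nlrc5*, and for *Tap2* it was within 0.01 of 0. Between those of version 9.0.1 it was −1.59 for *B2m*, −1.41 for *H2-K1*, −1.62 for *H2-D1*, −0.98 for *Psmb8*, −1.19 for *Psmb9*, −0.57 for *Tap2* and −0.48 for *Nlrc5*. *Tap1* went from 0.49 to −0.997 and *Tapbp* from 0.53 to −0.83. These are ratios of 1 library to 1 library and carry no test, and within each version the library cannot be told apart from the condition.

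Other values of the libraries moved with the class I levels of MG. A list of 26 interferon-response genes, none of them a member, summed to 1139, 2072, 2001 and 958 CPM in MG, in the same order of high and low libraries. The 12 microglia markers summed to 84.0, 353, 117 and 73.5 CPM in MG and to between 22070 and 36759 CPM in microglia-like cells, and none of the 12 was at 0 in MG of any library. A share was worked out as if every microglia marker UMI in MG came with microglia-like RNA of the mean composition in its library. That share was at most 6.02% of the level of a member in MG (*H2-D1* in *mKate2* AAV replicate 2). Microglia-like RNA of another composition and RNA of other cell types were not covered. In MG with fewer than 2 microglia marker UMIs *B2m* was at 434, 1268, 1134 and 420 CPM, and in MG that also lay in clusters named MG-like it was at 462, 1147, 1200 and 404 CPM. Rod markers summed to 117, 1027, 10.6 and 1864 CPM in MG and pigment epithelium markers to 8.76, 469, 209 and 3688 CPM, with the highest value of each in *Yap5SA* AAV replicate 3. Their part in the levels was not tested. Among MG with at least 10000 UMIs *B2m* was at 539, 998, 1342 and 391 CPM, so its split into high and low libraries also held in deep cells. *Nlrc5* was at 17.3, 63.5, 43.0 and 49.9 CPM there, with *Yap5SA* AAV replicate 3 above *Yap5SA* AAV replicate 1. In MG of 2000 to 5000 UMIs it was at only 4.66 CPM in *mKate2* AAV replicate 2 and 0.531 CPM in *Yap5SA* AAV replicate 3.

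**Figure D2:**
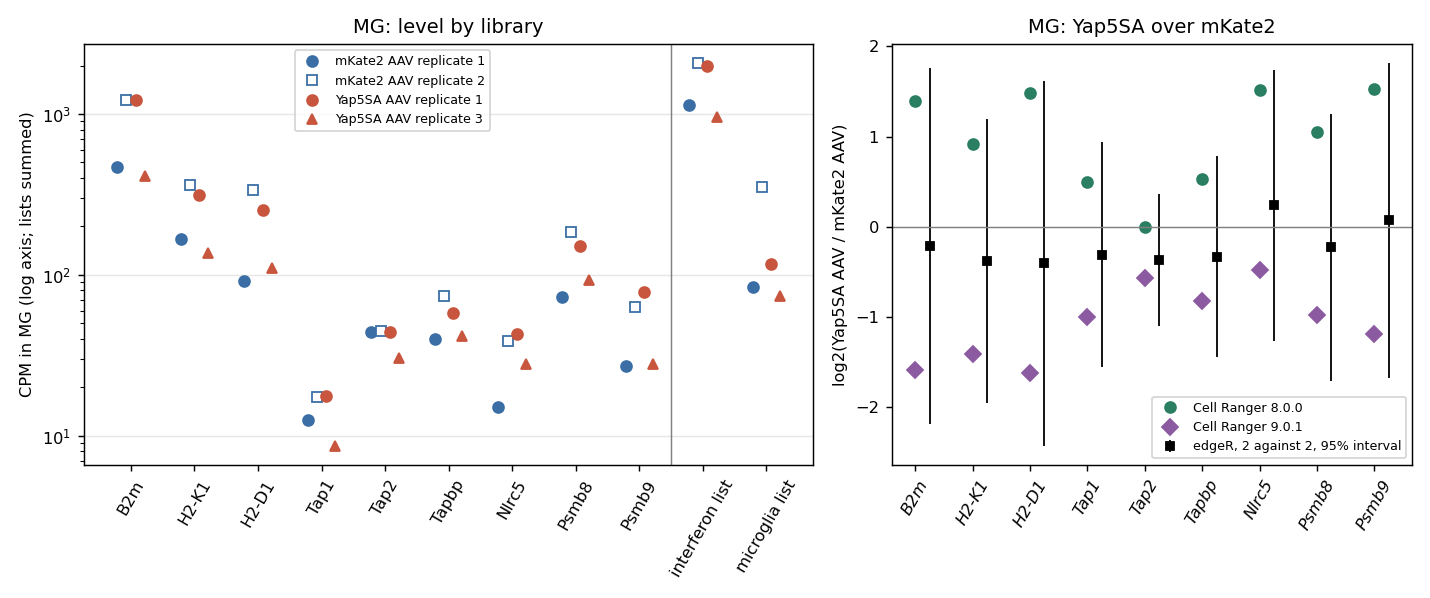
Left, level of each member in MG by library (CPM, log axis), with the summed interferon and microglia marker lists to the right of the line; *B2m* stood at 1229 and 1228 CPM in *mKate2* AAV replicate 2 and *Yap5SA* AAV replicate 1 and at 466 and 409 CPM in the other 2 libraries. Right, log2 ratio of *Yap5SA* over *mKate2* AAV between the 2 libraries of each Cell Ranger version, and edgeR's estimate over the 4 libraries with its 95% interval (black), which spans 0 for every member.

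The number of MG in which a member was seen followed the levels. After each cell had been thinned to 1000 UMIs, a *B2m* UMI was found in 27.2% (95% Clopper-Pearson interval 25.0 to 29.6), 61.8% (60.0 to 63.6), 50.9% (47.4 to 54.4) and 27.7% (25.3 to 30.1) of MG. Without thinning these shares were 65.1%, 84.6%, 83.2% and 55.6%. Rod-like cells, which had little *B2m*, gave 4.13% in *mKate2* AAV replicate 2 and 0.684% in *Yap5SA* AAV replicate 3 after thinning, and the shares in MG lay far above them. *H2-K1* was found in 11.7%, 20.8%, 20.7% and 7.61% of thinned MG and *Psmb8* in 7.48%, 19.7%, 13.5% and 10.1%, whereas *Tap1* was found in between 0.522% and 1.37%. *B2m* with both heavy chains was found in 0.601%, 5.25%, 3.24% and 0.746% of thinned MG and in between 25.0% and 53.0% of thinned microglia-like cells. These intervals cover counting error only.

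Class I levels also spanned a range among the MG-like clusters of 1 library. These levels were read over all cells of a cluster, including those that did not meet the MG rule. Over MG-like clusters with at least 50 cells in *mKate2* AAV replicate 2, *Psmb8* ran from 25.5 CPM in a cluster led by *Abca8b* and *Rgs6* to 365 CPM in a cluster of 1008 cells led by *Mt2*, *Gfap* and *Lcn2*. *B2m* ran from 419 to 1817 CPM and *Psmb9* from 15.3 to 116 CPM over the same clusters. In *Yap5SA* AAV replicate 1 *B2m* was highest, at 1345 CPM, in the cluster of 432 cells led by *Lcn2* and *C3*, which also held the highest *H2-K1* (345 CPM) and *H2-D1* (274 CPM). The same cluster was the highest for *B2m* in *mKate2* AAV replicate 1, at 823 CPM in 97 cells. In *Yap5SA* AAV replicate 3 *B2m* ran only from 282 to 451 CPM. The highest levels did not share 1 cluster: in *mKate2* AAV replicate 2 *H2-K1* and *H2-D1* were highest in a cluster led by *Ccn1* and *Maff* (432 and 366 CPM) and *B2m* in a second cluster led by *2900052N01Rik*. *Psmb8* was highest in the cluster led by *Prss56* and *Hopx* in *mKate2* AAV replicate 1 (172 CPM) and in *Yap5SA* AAV replicate 3 (193 CPM), and in a cluster led by *Crabp1* and *Dapl1* in *Yap5SA* AAV replicate 1 (418 CPM). The clusters were not tested against each other.

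Microglia-like cells had higher levels than MG for most of the pathway. The name stands for microglia and macrophages together, whose shared markers chose the class, and a cluster of 510 of these cells was led by immunoglobulin genes and *Lyz2*, with none of the 12 markers among its 10 leading genes. *B2m* was at 4997, 6157, 5696 and 5537 CPM in 32, 924, 156 and 66 microglia-like cells, *H2-D1* at 1162, 2047, 996 and 2085 CPM and *H2-K1* at 774, 1308, 773 and 1258 CPM. In each gene the lowest microglia-like library was above the highest MG library. Of the 9 members 7 were called higher than in MG and 0 lower, in a fit over all named cell types with the library as a block, where 51.6% of 17945 genes were called, 21.1% higher and 30.6% lower. With library size in place of TMM as the scaling, the share of higher genes among those called moved from 40.8% to 30.3%, and the same number of members, 7, was called higher. *H2-D1* rose by 3.47 on the log2 scale (SE 0.36, adjusted p = 4.14e-07) and *B2m* by 3.32 (SE 0.37, adjusted p = 1.15e-06), about 11.1-fold and 9.96-fold. *H2-K1* rose by 2.52, *Psmb8* by 2.10, *Psmb9* by 2.01, *Tap1* by 1.49 and *Tapbp* by 1.38.

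*Tap2* and *Nlrc5* stood apart. *Tap2* was at 12.98, 50.05, 27.2 and 55.9 CPM in microglia-like cells, on either side of its level in MG, and its log2 fold change was 0.10 (95% interval −0.66 to 0.85, adjusted p = 0.846). *Nlrc5* was at 67.1, 29.3, 78.2 and 26.1 CPM, with a log2 fold change of 0.86 (95% interval −0.04 to 1.76, adjusted p = 0.102). It passed the threshold without *mKate2* AAV replicate 2 and without *Yap5SA* AAV replicate 3, the libraries of Cell Ranger 9.0.1, in which microglia-like *Nlrc5* was lowest, and also with no filter on low counts and against MG with under 2 microglia marker UMIs. The median over the members was 2.01, beside −0.32 over all genes tested, and 1.71 beside −0.66 with library size. Most microglia-like cells of both replicates numbered 1 lay in a cluster led by *Cxcl2* and *Ccl4*, and most of those of *mKate2* AAV replicate 2 lay in clusters led by *Igkc* and *Ighg2c* and by *Cxcl13* and *Trem2*.

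The rest of the pathway gave a mixed picture in microglia-like cells, where 21.1% of all genes tested were called higher and 30.6% lower. Among 10 other heavy chain genes tested 8 were called higher and 2 lower, with a median of 2.61. The non-classical chain *H2-T23* rose by 2.87 (284 to 333 CPM against 24.1 to 89.0 CPM in MG, adjusted p = 1.40e-06), whereas *Cd1d1* (−2.62) and *Mr1* (−1.35), whose products present lipids and metabolites, fell. The further immunoproteasome genes *Psmb10* (1.40), *Psme1* (1.27) and *Psme2* (1.65), a catalytic subunit and the subunits of the PA28 activator, were each called higher. None of the standard subunits that *Psmb8*, *Psmb9* and *Psmb10* replace was called: *Psmb5* was at −0.19 (adjusted p = 0.472), *Psmb6* at 0.39 (0.135) and *Psmb7* at 0.43 (0.0701). Among 5 genes that help in loading, *Calr* (1.10) and *Pdia3* (1.02) were called higher. Of 19 regulators and receptors 10 were called higher and 1 lower, and the interferon receptor genes *Ifngr1* (2.30), *Ifngr2* (2.83), *Ifnar1* (1.60) and *Ifnar2* (2.18) were among the higher. Each of 7 MHC class II genes, which serve presentation to CD4 T cells, was called higher, with a median of 8.05, and of 26 interferon-response genes 13 were called higher and 6 lower.

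The ratio of an immunoproteasome subunit to the standard subunit it replaces put the cell classes in order. *Psmb8* over *Psmb5* UMIs was 0.625, 1.63, 0.951 and 0.797 in MG and 4.26, 5.84, 4.13 and 4.46 in microglia-like cells, and in rod-like cells it was 0.0926 in *mKate2* AAV replicate 2 and 0.0692 in *Yap5SA* AAV replicate 3. *Psmb9* over *Psmb6* was 0.214, 0.508, 0.504 and 0.220 in MG and between 0.794 and 1.35 in microglia-like cells. The MG and microglia-like values did not overlap for either of these ratios. *Psmb10* over *Psmb7* was 0.661, 0.763, 0.901 and 0.372 in MG and 1.22, 1.46, 1.66 and 0.833 in microglia-like cells. That ratio was higher in microglia-like cells within each library, but the values of the classes overlapped between libraries. *Psmb5* itself differed little between MG libraries, at 116, 113, 159 and 117 CPM, while *Psmb8* ranged from 72.8 to 184 CPM.

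Between conditions microglia-like cells showed no called difference, with 0 of 9087 genes (0%) called by edgeR, 102 at an unadjusted p under 0.05 and 1 called by DESeq2. *B2m* was at −0.05 (95% interval −0.82 to 0.71) and *H2-D1* at −0.11 (−1.37 to 1.14). *Psmb8* was the furthest from 0, at −0.52 (−1.53 to 0.49, adjusted p = 1.00). The difference of the condition effect between microglia-like cells and MG was tested as an interaction, which called 6 of 16214 genes (0.037%) and none of the members. For *B2m* the interaction was 0.10 (95% interval −1.16 to 1.37).

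Photoreceptors and interneurons carried little class I RNA, with *H2-D1* and *Tapbp* as partial exceptions. These cells reached 20 per class in *mKate2* AAV replicate 2 and *Yap5SA* AAV replicate 3 only, with 654 and 585 rod-like, 61 and 42 cone-like, 382 and 68 bipolar-like and 140 and 46 amacrine-like cells. In rod-like cells *B2m* was at 43.4 and 4.88 CPM, *H2-K1* at 62.2 and 12.8 CPM and *Psmb8* at 7.32 and 4.13 CPM. *H2-D1* was at 212 and 48.8 CPM and *Tapbp* at 68.4 and 48.8 CPM, the latter close to its 74.2 and 41.9 CPM in MG of these libraries. Of the 9 members 8 were called lower than in MG, where 44.3% of all genes were called and 27.5% were lower. *B2m* fell by 5.69 on the log2 scale (SE 0.59, adjusted p = 8.05e-07), and the log2 fold change was −4.81 for *Psmb8*, −4.45 for *Psmb9*, −3.36 for *H2-K1* and −3.18 for *Tap2*. *H2-D1* fell by 1.24 (SE 0.45, adjusted p = 0.0337), and this call was lost without *mKate2* AAV replicate 2, without *Yap5SA* AAV replicate 3, with library size in place of TMM and at a cluster resolution of 2. *Tapbp* was at −0.22 (95% interval −0.80 to 0.36, adjusted p = 0.549). Without *Yap5SA* AAV replicate 3 the count of members called fell from 8 to 5, since *Tap1* and *Nlrc5* were lost as well.

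Cone-like cells gave the same count, 8 of 9 called lower beside 23.8% of all genes (35.4% in either direction), and *H2-D1* was the gene not called (−0.68, 95% interval −1.64 to 0.27, adjusted p = 0.265, at 286 and 138 CPM). Without either of the 2 libraries that hold these cells the count was 5. In bipolar-like cells 9 of 9 were called lower beside 24.3% of all genes (40.7% in either direction), and in amacrine-like cells 9 of 9 beside 22.2% (37.7% in either direction). The count was 7 in bipolar-like cells without *Yap5SA* AAV replicate 3 and in amacrine-like cells without it or *mKate2* AAV replicate 2. *H2-D1* was at 102 and 27.9 CPM in bipolar-like cells and at 115 and 41.4 CPM in amacrine-like cells, and *B2m* at 70.8 and 10.4 CPM and at 113 and 18.2 CPM. Of all genes called, 32.8%, 40.3% and 41.0% were higher in cone-like, bipolar-like and amacrine-like cells, and 53.1%, 51.3% and 55.6% with library size in place of TMM (51.4% in amacrine-like cells with DESeq2). With library size 6, 8 and 8 members were called, all of them lower. Medians over the members were −3.18 in rod-like, −2.76 in cone-like, −2.54 in bipolar-like and −3.35 in amacrine-like cells, beside −0.30, −0.53, −0.21 and −0.26 over all genes. With library size they were −2.97, −2.17, −2.25 and −2.94, beside −0.13, −0.03, 0.06 and 0.11.

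The balance between the chains was different in neurons. *H2-D1* over *B2m* UMIs was 0.195, 0.273, 0.206 and 0.268 in MG and 0.232, 0.332, 0.175 and 0.377 in microglia-like cells. It was 4.89 and 10.0 in rod-like cells (1275 over 261 UMIs and 130 over 13), 5.07 and 8.64 in cone-like, 1.45 and 2.69 in bipolar-like and 1.02 and 2.27 in amacrine-like cells. In each neuronal class the ratio lay above those of MG and of microglia-like cells of the same library. *H2-K1* over *B2m* was also above 1 in rod-like, cone-like and bipolar-like cells (1.43 to 2.95) and below 1 in MG (0.255 to 0.356). These are ratios, and the levels of *H2-D1* and *H2-K1* were lower in rod-like cells than in MG. Among 10 other heavy chain genes tested, 7 were called lower in rod-like cells and 1 higher, with a median of −3.77. Of all genes 27.5% were called lower. The 1 higher was *H2-K2* (12.3 and 14.6 CPM against 4.41 and 4.21 CPM in MG, log2 fold change 1.60, adjusted p = 0.00394). In each neuronal class *B2m*, *H2-K1* and *H2-D1* were higher in *mKate2* AAV replicate 2 than in *Yap5SA* AAV replicate 3, as in MG, and with 1 library per condition this is a comparison of libraries. The microglia markers summed to 47.9 and 60.8 CPM in rod-like cells and MG markers to 718 and 341 CPM, and their part in these levels was not tested.

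**Figure D3:**
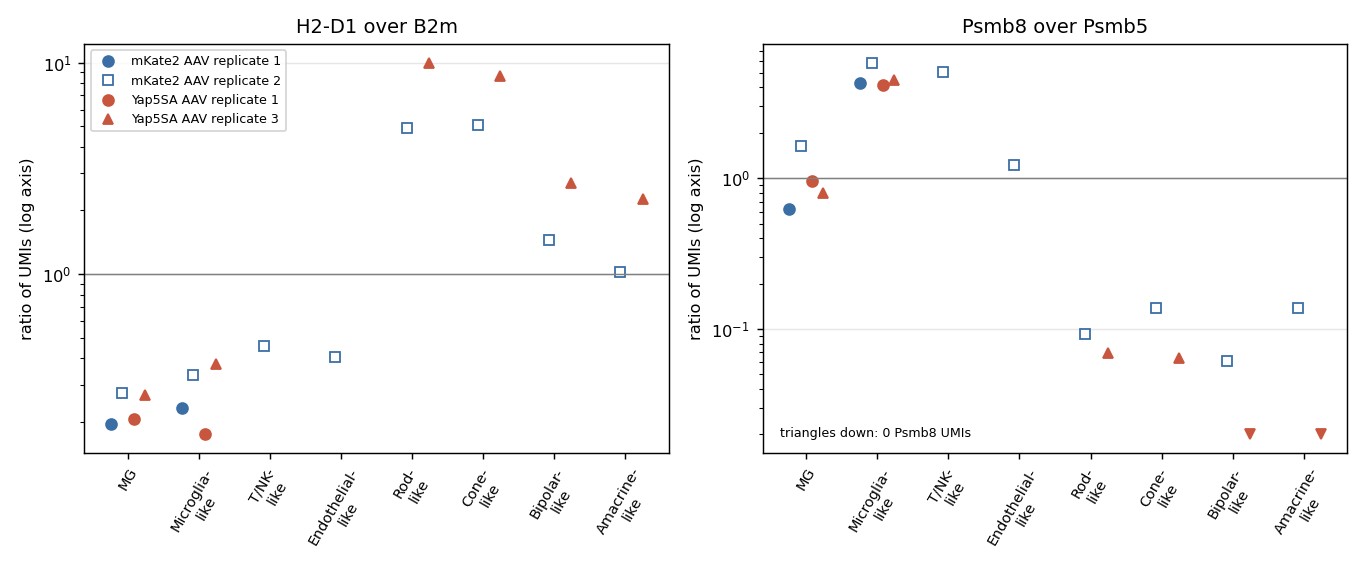
Ratio of *H2-D1* to *B2m* UMIs (left) and of *Psmb8* to *Psmb5* UMIs (right) by cell class, 1 point per library with at least 20 cells of the class, log axes, with the line at a ratio of 1. *H2-D1* exceeded *B2m* in every neuronal class (1.02 to 10.0) and in no MG or microglia-like sum (0.175 to 0.377), and *Psmb8* exceeded *Psmb5* in every microglia-like sum (4.13 to 5.84) and in 1 of 4 MG sums.

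Small classes of *mKate2* AAV replicate 2 completed the range, with no replicate. In 52 T/NK-like cells *B2m* was at 3934 CPM, *H2-K1* at 1606 CPM and *Nlrc5* at 269 CPM, the highest *Nlrc5* of the 18 sums of a library and a class. In 26 endothelial-like cells *B2m* was at 1100 CPM, near the level of MG in that library, and *H2-D1* at 447 CPM. For *B2m* the classes of that library ran from microglia-like through T/NK-like, MG, endothelial-like, amacrine-like, bipolar-like and cone-like to rod-like cells. In *Yap5SA* AAV replicate 3 microglia-like cells and MG again came first and rod-like cells last, but the amacrine-like, cone-like and bipolar-like sums held only 11, 11 and 13 *B2m* UMIs, so the order among them is within counting error.

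**Figure D4:**
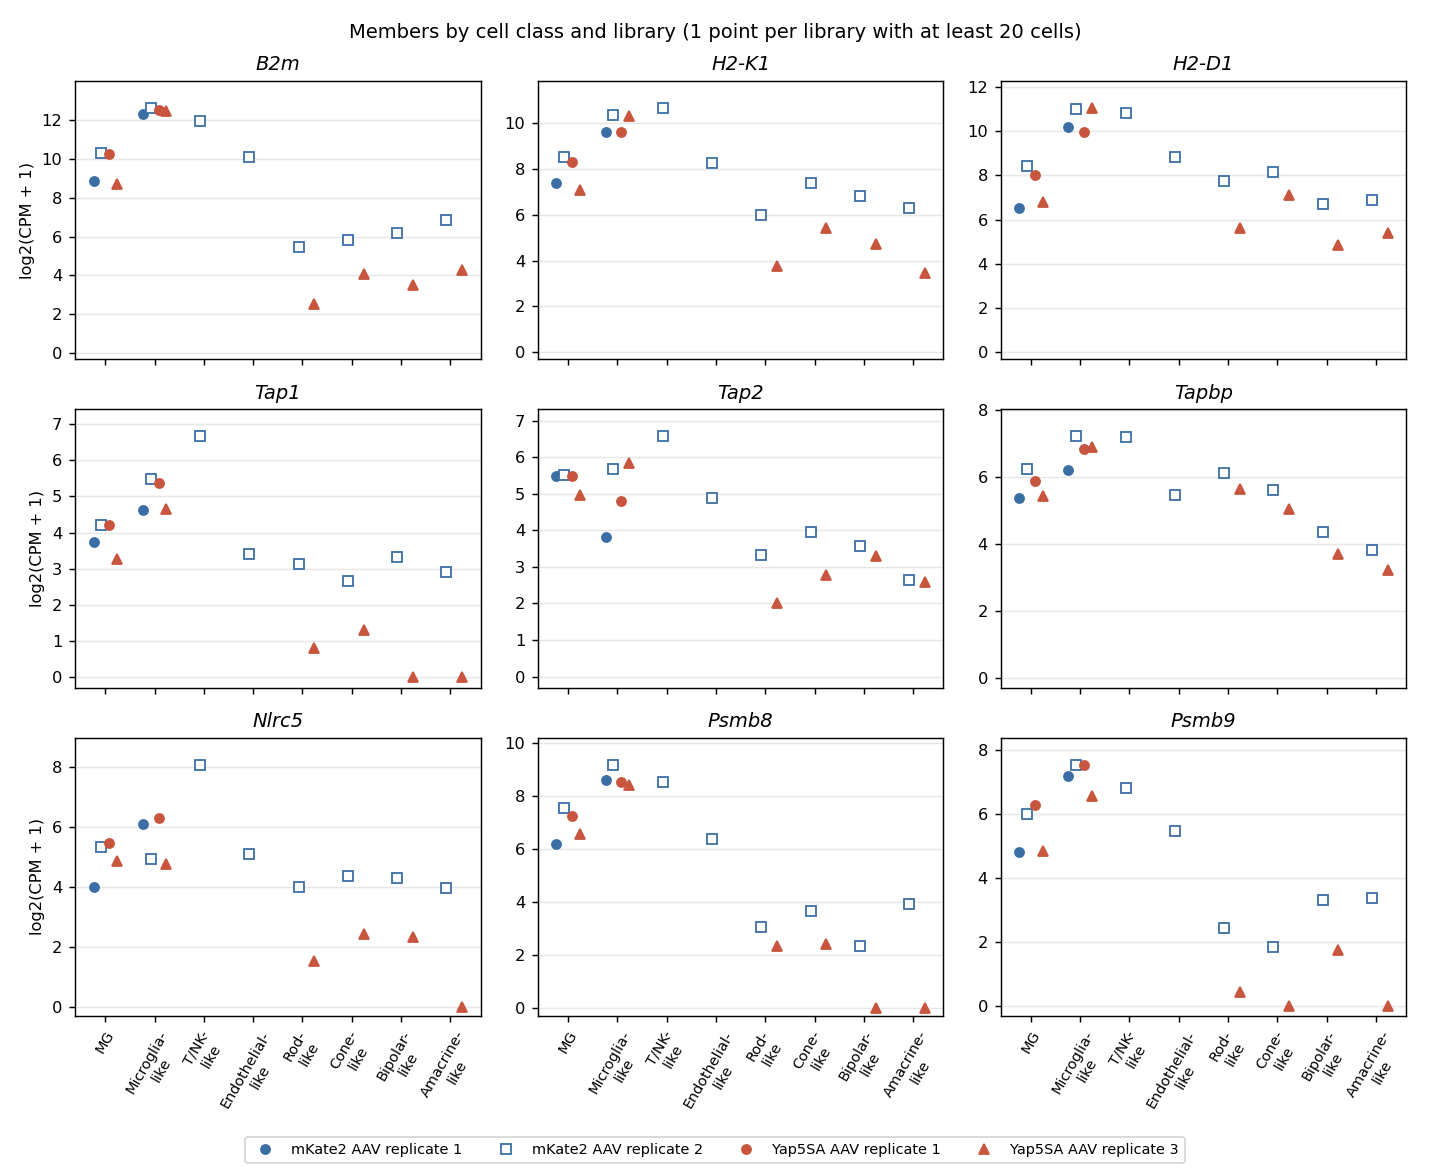
Level of each member, as log2(CPM + 1), by cell class, with 1 point per library that had at least 20 cells of the class (blue *mKate2* AAV, red *Yap5SA* AAV). Microglia-like and T/NK-like cells are highest for *B2m*, *H2-K1* and *H2-D1*, MG lie between them and the neuronal classes for *B2m*, *Psmb8* and *Psmb9*, and *Tapbp* in rod-like cells (68.4 and 48.8 CPM) is level with MG.

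Within MG, cells with many interferon-response transcripts had more RNA of the immunoproteasome subunits and of *B2m* and *H2-D1*. A thinned MG was called interferon-high with at least 3 UMIs of the 26 interferon-response genes, which made up 10.4%, 27.9%, 23.7% and 11.7% of MG. *Psmb8* was at 173, 415, 263 and 274 CPM in interferon-high MG and at 70.0, 215, 131 and 109 CPM in other MG of the same libraries. *Psmb9* was at 51.3, 129, 147 and 51.0 CPM against 32.0, 60.8, 55.5 and 33.8 CPM. *B2m* was at 500, 1733, 1589 and 478 CPM against 346, 1302, 884 and 364 CPM. All 3 genes were higher in interferon-high cells in 4 of 4 libraries.

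With the library as a block, 4 of the 9 members were called higher and 0 lower, where 1.05% of 9341 genes were called higher and 2.27% in either direction. The interferon-response genes that chose the cells were left in the test, and the 24 of them tested were all called higher. Their rise was set by the choice of cells, and they are part of the 98 genes called higher. They were also left in the fit with DESeq2. *Psmb8* rose by 1.06 on the log2 scale (SE 0.14, adjusted p = 2.55e-09), *Psmb9* by 1.03 (SE 0.20, adjusted p = 1.85e-04), *B2m* by 0.53 (SE 0.11, adjusted p = 6.29e-04) and *H2-D1* by 0.55 (SE 0.14, adjusted p = 0.0165). *H2-K1* missed the threshold at 0.42 (adjusted p = 0.093), with a higher level in 3 of 4 libraries, and passed it without *mKate2* AAV replicate 1, the exception. *Tap1* (1.07, adjusted p = 0.296) and *Tap2* (0.66, 0.211) rested on few UMIs in interferon-high cells, as few as 1 and 6 in a library, and *Tapbp* (0.20, 0.812) and *Nlrc5* (0.24, 0.876) were not called. The count fell to 2 with DESeq2 (*B2m* and *Psmb8*), without *mKate2* AAV replicate 2 (the same 2) and without *Yap5SA* AAV replicate 1 (*Psmb8* and *Psmb9*). DESeq2 called 68 genes, 77.9% of them higher, in place of 212 with 46.2% higher. The median over the members was 0.55, beside −0.02 over all genes.

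Genes around the members moved in part with them in interferon-high MG, where 1.05% of all genes tested were called higher. *Psmb10* (1.21), *Psme1* (0.63) and *Psme2* (0.71) were called higher, while the standard subunits *Psmb5* (0.49, adjusted p = 0.0502), *Psmb6* (0.32) and *Psmb7* (−0.12) were not. *H2-T23* (1.29) and *H2-T22* (1.08) were called among 7 other heavy chains tested, and *Tapbpl* (1.26) among 5 loading helpers. Among the regulators *Irf9* (1.42), an interferon regulatory factor, was called higher, and *Irf1*, another, was at 0.60 (adjusted p = 0.175). The class II genes *Cd74* (1.04), *H2-Aa* (1.56) and *H2-Ab1* (1.27) were called as well. The microglia markers summed to 135, 479, 31.6 and 76.4 CPM in interferon-high MG and to 49.9, 207, 89.7 and 86.1 CPM in other MG, higher in both *mKate2* AAV libraries and lower in both *Yap5SA* AAV libraries. Without cells of 2 or more microglia marker UMIs *B2m*, *Psmb8* and *Psmb9* were still called and *H2-D1* was not, and the same 3 were called with the limit at 5 interferon-response UMIs, with no filter on low counts and with *Yap5SA* AAV replicate 2 in place of 1.

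**Figure D5:**
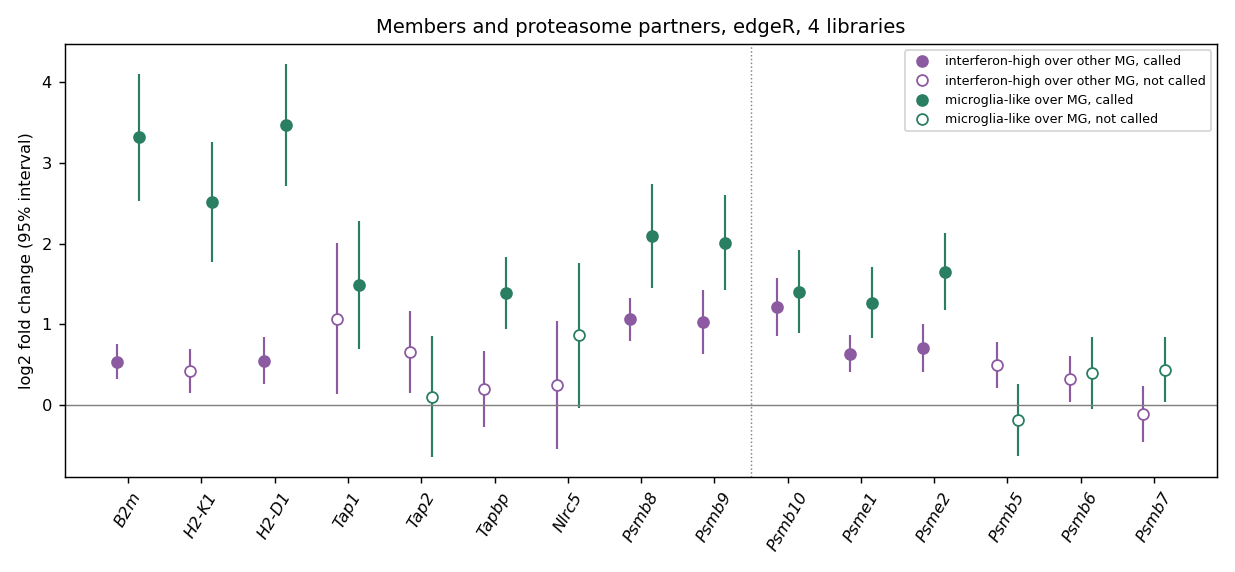
edgeR log2 fold changes with 95% intervals for the members (left of the dotted line) and for proteasome partners (right), for interferon-high over other MG (purple) and microglia-like cells over MG (green), with 4 libraries in each; filled points passed an adjusted p of 0.05. *Psmb8*, *Psmb9*, *Psmb10*, *Psme1* and *Psme2* are filled in both comparisons, and the standard subunits *Psmb5*, *Psmb6* and *Psmb7* in neither.

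Over the 18 sums of a library and a class, the genes outside the members most like their mean standardised level, among 15241 ranked, were *Bax* (Pearson r = 0.955), *Pdia3* (0.951), *Trim30a* (0.947), *Btf3*, *Nfatc1*, *Rpl18*, *Rtp4*, *Dtx3l*, *Rplp0* and *Tspo* (0.936). *Pdia3* encodes a protein of the peptide-loading complex, *Trim30a* and *Rtp4* are interferon-response genes, and *Rpl18* and *Rplp0* encode ribosomal proteins. The sums share libraries, and the correlations mostly set immune cells and MG against neurons.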

How the data were processed

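Single-cell RNA sequencing (10x Genomics 3′ libraries) of sorted tdTomato+ retinal cells was analysed. The authors deposited UMI counts per gene and cell, unnormalized, made with Cell Ranger on GRCm39. The submitters' processing notes name version 8.0.0, whereas the file headers give 8.0.0 for 3 of the 5 libraries and 9.0.1 for *mKate2* AAV replicate 2 and *Yap5SA* AAV replicate 3. A tdTomato row, present in some libraries only, was dropped.

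The members and lists were chosen with earlier results of these data known. Clusters (scanpy 1.11.5, 2000 variable genes, 30 components, 15 neighbours, Leiden resolution 1) were named "-like" if 3 or more markers, over 60% of those fixed for a type, reached 10% of cells, with a mean marker level of 0.25 or more of that in the highest cluster. The naming rule was changed after clusters had been seen: an MG-like cluster needed 50% of cells meeting the MG rule, and leading genes of another type left a cluster unnamed (1 of 330 cells led by cone genes among them). 1 bipolar-like cluster of 70 cells has the cone gene *Cngb3* among its 10 leading genes. MG for the tests came from the rule, not from clusters, and 91.5% of them lay in MG-like clusters. By library these were 1480 of 1498, 2657 of 2898, 787 of 803 and 1063 of 1341 MG, so the share was lowest in *Yap5SA* AAV replicate 3. There 60 MG by the rule lay in the pigment epithelium-like cluster and 204 in unnamed clusters. Doublets were neither called nor removed, and the sources used here do not say that they had been.

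UMIs were summed per library and class (at least 20 cells), put through filterByExpr and TMM scaling, and compared by the quasi-likelihood test of edgeR 4.0.16 (R 4.3.3), with Benjamini-Hochberg adjustment over all genes tested. Type comparisons had the library as a block. DESeq2 1.42.0 was an alternative, beside library-size scaling, no filter, other choices of MG, other cuts and leaving out each library. Recovery was checked on counts simulated with 200 genes changed. The text names the 9 members in every comparison, list members past the threshold as examples, 9 fixed partners, and the 10 genes most like the members' mean. 1 regulator on the lists is not reported here.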

Additional observations from a re-analysis of the deposited data

How the results depend on the processing

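No paired analysis was possible because the conditions share only replicate number 1 once *Yap5SA* AAV replicate 2 is left out, which concerns pairing by replicate number alone. A fit with the Cell Ranger version as a term, each version holding 1 library of either condition, called 0 genes in MG (151 at an unadjusted p under 0.05). Of the alternatives for single members 823 kept the direction and the side of the threshold, 37 lost a call, 5 gained one and 52 changed direction, and in no case was the cause tested. For *Yap5SA* over *mKate2* AAV in MG, *Psmb9* went from 0.07 to −0.091 in MG with under 2 microglia marker UMIs and to −0.24 in MG thinned to 1000 UMIs. Leaving out 1 library at a time moved *B2m* from −1.17 to 0.82, *H2-K1* from −1.07 to 0.44, *H2-D1* from −1.10 to 1.00, *Tap1* from −0.87 to 0.10, *Tapbp* from −0.78 to 0.33, *Nlrc5* from −0.34 to 1.25, *Psmb8* from −0.80 to 0.76 and *Psmb9* from −0.82 to 0.97. In microglia-like cells the genes called between conditions numbered 1 with DESeq2, 38 with no filter on low counts, 12 with the Cell Ranger version as a term and between 0 and 64 (without *Yap5SA* AAV replicate 3) with a library left out. There *B2m* was 0.0044 and *Tapbp* 0.017 with library size, and *Tapbp* 0.060 and *Nlrc5* −0.0056 with the version term. With a library left out the ranges there were −0.30 to 0.23 for *B2m*, −0.65 to 0.46 for *H2-K1*, −0.91 to 0.49 for *H2-D1*, −0.57 to 0.52 for *Tap1*, −0.59 to 1.69 for *Tap2*, −0.53 to 0.70 for *Tapbp* and −0.78 to 0.68 for *Nlrc5*. For microglia-like cells over MG, *Tap2* was −0.23 with library size and ran from −0.33 to 0.51 with a library left out. Over MG, genes called with a library left out ran from 4134 to 8060 in rod-like, 3144 to 6360 in cone-like, 3181 to 7448 in bipolar-like and 2947 to 6815 in amacrine-like cells, lowest each time without *mKate2* AAV replicate 2, where fewer genes were tested, and *Tapbp* in rod-like cells ran from −0.47 to 0.0035. For the difference of the condition effect between cell types 0 genes were called with DESeq2 (95 at an unadjusted p under 0.05), 0 with library size (322) and between 2 and 175 with a library left out, where *B2m* ran from −0.72 to 0.91, *H2-K1* from −0.80 to 1.197, *H2-D1* from −1.23 to 1.14, *Tap1* from −0.058 to 0.44, *Tap2* from −0.17 to 1.86, *Tapbp* from −0.052 to 0.56 and *Nlrc5* from −1.65 to 0.81. For interferon-high MG 68 genes were called with DESeq2, where *Tapbp* was −0.060, *Nlrc5* was −0.079 with the limit at 2 UMIs, and with a library left out the genes called ran from 82 (without *mKate2* AAV replicate 2, with fewer genes tested) to 181, *Tapbp* from −0.47 to 0.39 and *Nlrc5* from −0.10 to 0.56. The mean share of MG with a UMI was higher with thinning to 2000 than to 1000 UMIs, by construction and with shallower cells left out, at 61.3% for *B2m*, 27.6% for *H2-K1*, 23.003% for *H2-D1*, 2.20% for *Tap1*, 7.27% for *Tap2*, 8.47% for *Tapbp*, 3.65% for *Nlrc5*, 21.8% for *Psmb8* and 9.72% for *Psmb9*.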
